A study of Mus musculus with 16 samples.

Results

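The neuronal pentraxins are the 3 genes Nptx1, Nptx2 and Nptxr, and every row of the deposited gene tables with one of these symbols was taken, 3 of 24972 genes. Nptx1 (also called NP1) and Nptx2 (NP2 or Narp) encode secreted proteins, and Nptxr encodes a membrane-anchored relative, the neuronal pentraxin receptor. The 3 proteins assemble into mixed complexes that gather AMPA-type glutamate receptors at excitatory synapses, in the hippocampus also on parvalbumin interneurons, and the anchored member can be cut loose from the membrane by proteases such as ADAM17. Nptx2 is known as an immediate early gene whose transcription follows neuronal activity, whereas Nptx1 and Nptxr are expressed more constantly in neurons.

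The transcripts were measured by bulk RNA-seq in 16 libraries of microdissected dorsal hippocampus from adult ArcCreERT2::eYFPflx mice, a line in which an Arc-driven, tamoxifen-dependent Cre marks active cells and which both training groups carried. Trained mice had learned to avoid a shock zone in a rotating arena (active place avoidance) and were killed after a retention test, and untrained mice were put in the same arena without any shock. CA1 was represented by 3 trained and 3 untrained libraries, CA3 by 3 trained libraries and untrained replicates 1 and 2, and the dentate gyrus (DG) by 3 trained libraries and untrained replicates 1 and 3. Tissue pieces of one animal were pooled by subregion, so a library is one subregion of one animal and the 16 libraries come from 6 animals. The deposited values are estimated counts after the authors' normalization, with library sums between 7607326 and 7984931, and the number of reads behind each library is not given by them. The members were chosen from results of these data that were already known, and which values led to the choice is not recorded. The training and the subregion differences of the 3 genes are therefore given as descriptions with standard errors and without a test. The gene lists used below were also chosen with earlier results of these data known. Their counts of calls beside the share of all genes are therefore descriptions too.

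The subregion labels were compared with marker transcripts. Transcripts of dentate granule cells did not separate the subregions. Prox1, the transcription factor of granule cells, lay between 3292 and 4183 in DG, between 3052 and 3861 in CA1 and between 2690 and 4786 in CA3, and 0 of 5 granule cell markers differed between any pair of subregions at an adjusted p under 0.05 (limma, with 1, 0 and 0 at an unadjusted p under 0.05 in CA1 against DG, CA3 against DG and CA1 against CA3). Of 5 CA1 pyramidal markers, 3 were higher in CA1 than in CA3 (Wfs1, Pou3f1 and Mpped1), and 0 differed between CA1 and DG (3 at an unadjusted p under 0.05). Wfs1 was 746 to 1663 in untrained CA1 and 472 to 681 in trained CA1, against 244 to 558 in CA3 and DG together. Of 5 CA3 pyramidal markers only Grik4 differed between subregions, with a lower value in CA1. Markers of interneurons, oligodendrocytes, microglia, astrocytes, CA2 pyramidal cells and thalamus had 0 calls between subregions, with 0 to 2 genes of each list at an unadjusted p under 0.05, and of 4 choroid plexus markers Kl was higher in CA1 than in CA3. CA1, CA3 and DG below name the label of a library, not a tissue shown to be free of the others.

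Some markers also moved with training. The summed level of the 5 CA1 markers was 3137 to 5070 in untrained and 1540 to 1956 in trained CA1, where Fibcd1 fell. The 5 CA3 markers summed to 2158 to 2760 in untrained and 2722 to 2882 in trained CA1, to 1631 and 2298 in untrained and 2671 to 3489 in trained CA3, and to 2412 and 2531 in untrained and 2836 to 3255 in trained DG. Dkk3 made up most of these sums (subregion means CA1 2139, CA3 2013, DG 2232). Cdh24 rose in CA1 and CA3, Grik4 in CA1 and Dkk3 in DG. Csf2rb2 went the other way under every label without a call (CA1 -0.34, CA3 -0.66, DG -0.22). The remaining differences of this list, not called, were positive except for Iyd in CA3 (-0.02). In DG the granule cell markers Prox1 and Stxbp6 fell and their list summed to 9353 and 9653 in untrained against 7486 to 7835 in trained libraries. Of 4 astrocyte markers Aqp4 fell in CA1 (the others differed by -0.03 to 0.08), of 7 interneuron markers Sst rose in CA3 (the others, not called, differed by 0.50 for Slc32a1, 0.39 for Vip, 0.30 for Lhx6, 0.21 for Pvalb, 0.01 for Gad2 and -0.04 for Gad1), Ttr and Clic6 of choroid plexus fell in CA3, and Pcp4 and Map3k15 of CA2 and Prkcd of thalamus fell in DG, all at an adjusted p under 0.05 (limma). No marker of oligodendrocytes or microglia was called with training (2 and 0 genes at an unadjusted p under 0.05 in DG, and 0 in CA1 and CA3). The interneuron list summed to 3408 to 3686 in untrained and 3433 to 3645 in trained CA1, to 3168 and 3628 against 3344 to 3922 in CA3, and to 3296 and 3596 against 3694 to 3832 in DG, where the groups did not overlap. In DG 17.5% of single genes had every trained library above every untrained one. Trained sums were also lower without overlap for astrocytes in CA1 (7726 to 8012 against 8128 to 8410) and CA3, CA2 in all subregions, oligodendrocytes in DG and choroid plexus in CA3. For thalamus in CA1 they were higher (944 to 1011 against 881 to 938). The part of these markers in the differences of the pentraxins was not tested.

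The sex-linked transcripts followed the training groups in nearly all libraries, although the study's methods list both sexes in each group. Xist, made by the inactive X chromosome, lay between 7601 and 19592 in the 9 trained libraries and between 25.5 and 52.4 in 6 of the 7 untrained libraries, while CA3 untrained replicate 1 had a value of 10587. That library goes against its own animal, whose CA1 and DG libraries had Xist values of 26.1 and 25.5, and its Y-linked Ddx3y was 201.4 beside 448.4 to 552.8 in the other untrained libraries. A mixed or exchanged sample cannot be told apart from other causes here. DG trained replicate 3 also held both kinds of transcript, with Xist at 7601 and Ddx3y at 255.2, beside Ddx3y values of 1.83 and 1.66 in the other trained DG libraries. Lower Ddx3y values stood beside high Xist in CA1 trained replicates 1 and 3 (70.9 and 100.6, with 9.09 in replicate 2) and CA3 trained replicate 3 (92.9, with 12.9 and 6.54 in replicates 1 and 2). All 5 libraries are used below, and training differences are given without each of them as well. In the other libraries the effects of training and of what moves with Xist cannot be told apart. The number of genes at 0 also moved with training, upward in CA1 (8323 to 9759 genes in trained and 3124 to 5425 in untrained libraries) and downward in DG (3479 to 5944 in trained, 7567 and 8636 in untrained libraries). The part of both in the values below was not tested.

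**Figure D1:**
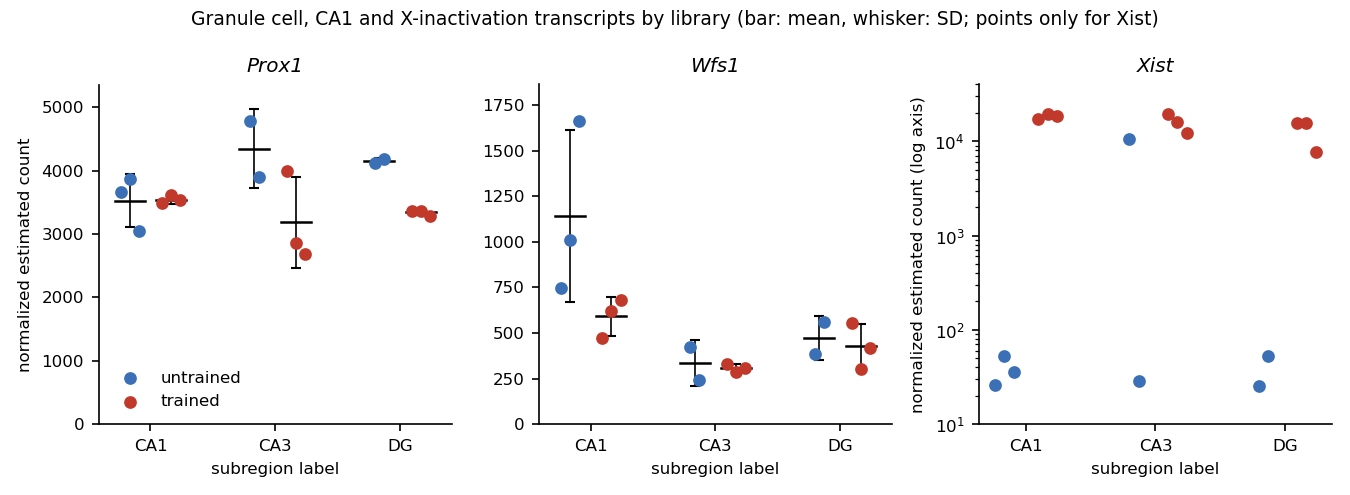
Normalized estimated counts of Prox1 (dentate granule cells), Wfs1 (CA1 pyramidal cells) and Xist in the 16 libraries by subregion label, with untrained libraries in blue and trained ones in red. Bars and whiskers are the mean and SD, Xist is on a log axis with points only. Prox1 is about as high in CA1 and CA3 as in DG, Wfs1 is highest in untrained CA1, and Xist separates the training groups except in CA3 untrained replicate 1 (10587).

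The 3 genes lie on different chromosomes and share the layout of 5 exons. Coordinates are those of GRCm38 with the GENCODE M21 annotation. Nptx1 spans chr11:119538719-119547753 on the minus strand, Nptx2 chr5:144545902-144557478 on the plus strand and Nptxr chr15:79786351-79804766 on the minus strand. Over aligned coding bases, Nptx1 and Nptx2 were 65.6% identical, Nptx2 and Nptxr 61.9%, and Nptx1 and Nptxr 59.3%. To show how alike the transcripts are where reads must be told apart, a stretch of 90 coding bases of the third exon is given 5′ to 3′ on the coding strand from the reference genome, with capitals at the 60 positions that are identical in all 3 genes.
Nptx1: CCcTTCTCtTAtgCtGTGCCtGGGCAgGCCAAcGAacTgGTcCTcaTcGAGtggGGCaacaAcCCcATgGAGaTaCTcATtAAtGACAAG
Nptx2: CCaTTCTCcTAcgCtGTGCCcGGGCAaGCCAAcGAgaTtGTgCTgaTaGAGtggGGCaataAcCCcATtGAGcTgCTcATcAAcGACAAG
Nptxr: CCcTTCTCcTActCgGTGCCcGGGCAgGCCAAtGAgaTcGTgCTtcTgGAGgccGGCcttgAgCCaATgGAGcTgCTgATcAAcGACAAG
These stretches lie at chr11:119544592-119544681 (minus), chr5:144553555-144553644 (plus) and chr15:79792603-79792692 (minus). In this window Nptx1 and Nptx2 share 73 bases, Nptx2 and Nptxr 71, and Nptx1 and Nptxr 63. The longest run shared without a mismatch by any pair of annotated transcripts was 19 bases, between Nptx2 and Nptxr. Nptxr has another neighbour to share reads with: 890 of its exonic bases (17.2%) are also exonic in Npcd, an annotated gene on the same strand that shares 563 bases with Cbx6 as well.

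**Figure D2:**
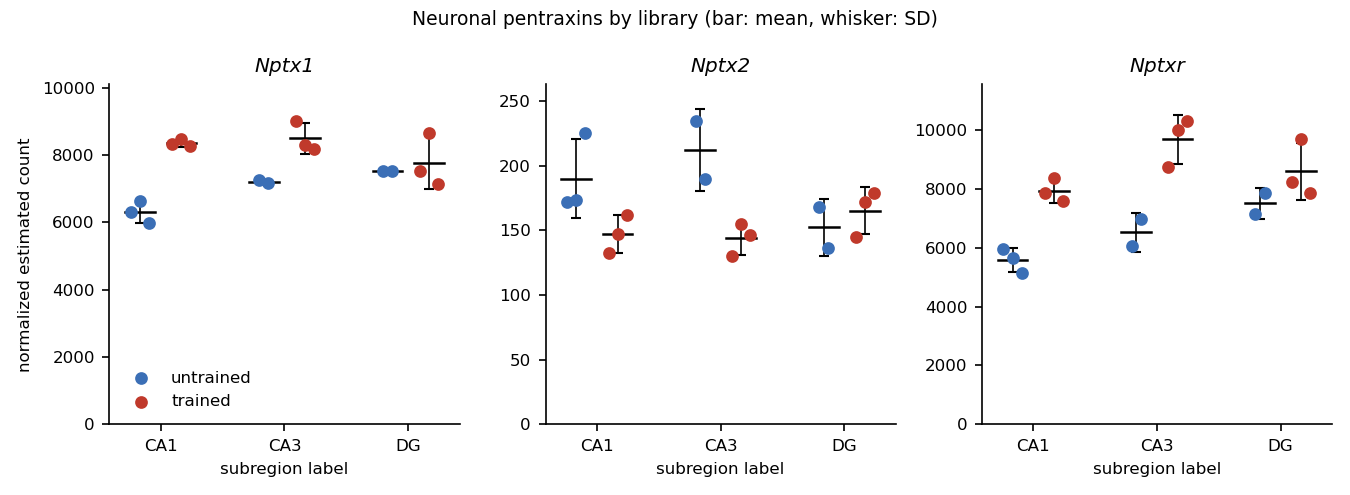
Normalized estimated counts of Nptx1, Nptx2 and Nptxr in the 16 libraries by subregion label, with untrained libraries in blue, trained ones in red, bars at the mean and whiskers of 1 SD. In CA1 and CA3 every trained point of Nptx1 and Nptxr is above every untrained one and every trained point of Nptx2 is below, whereas the DG groups overlap in all 3 panels.

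Nptx1, the secreted member with the steadier expression, was among the abundant transcripts in every library. In CA1 its values were 6294, 6621 and 5970 in untrained replicates 1 to 3 and 8323, 8484 and 8272 in trained replicates 1 to 3. In CA3 they were 7249 and 7158 in the untrained libraries and 9019, 8298 and 8173 in the trained ones. The trained libraries stood above the untrained ones without overlap in both subregions. In DG the values were 7523 and 7518 untrained and 7520, 8650 and 7136 trained, with trained libraries on both sides of the untrained pair. On the log2(value + 2) scale, trained minus untrained was 0.41 in CA1 (standard error 0.0439), 0.24 in CA3 (0.0725) and 0.04 in DG (0.0696), where it was -0.04 without trained replicate 2 and 0.10 without trained replicate 3. The mean over CA1 libraries was 6295 ± 325 (SD, n = 3) untrained and 8360 ± 111 (SD, n = 3) trained.

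Nptx2, the activity-regulated secreted member, was the scarce one and the only one of the 3 that was lower in trained CA1 and CA3. In CA1 its values were 171.8, 173.4 and 225.2 in untrained and 132.3, 146.9 and 161.7 in trained libraries. In CA3 they were 234.9 and 189.7 untrained against 130.1, 155.3 and 146.5 trained. The groups did not overlap in either subregion. In DG they were 168.1 and 136.8 untrained and 144.6, 172.0 and 179.4 trained, and the groups overlapped. The difference on the log2(value + 2) scale was -0.36 in CA1 (standard error 0.135), -0.55 in CA3 (0.133) and 0.12 in DG (0.152). The CA1 difference was -0.23 without untrained replicate 3, which holds the highest CA1 value, and the DG difference was -0.03 without untrained replicate 3, 0.26 without untrained replicate 1 and 0.06 without trained replicate 3. The mean over CA1 libraries was 190.1 ± 30.4 (SD, n = 3) untrained and 147.0 ± 14.7 (SD, n = 3) trained.

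Nptxr, the membrane-anchored member, was as abundant as Nptx1 and had the widest range of group means of the 3, 0.79 on the log2 scale. In CA1 its values were 5950, 5653 and 5158 in untrained and 7860, 8386 and 7577 in trained libraries. In CA3 they were 6063 and 6984 untrained and 8744, 10011 and 10319 trained. Every trained library was again above every untrained one. In DG the values were 7135 and 7880 untrained and 8249, 9694 and 7857 trained, so that trained replicate 3 fell below untrained replicate 3. The difference on the log2(value + 2) scale was 0.51 in CA1 (standard error 0.0527), 0.57 in CA3 (0.0922) and 0.19 in DG (0.0814). The DG difference was 0.10 without trained replicate 2.

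These non-overlaps have a background among all genes tested. In CA1, 12.9% of genes had every trained library above every untrained one and 11.1% had every trained library below. The shares were 17.2% and 16.7% in CA3 and 17.5% and 18.2% in DG. Since the members were chosen from results of these data, their own count is not read against these shares. At an adjusted p under 0.05 (limma), 5.23% of genes tested were called between trained and untrained in CA1, 0.852% in CA3, 3.39% in DG and 10.3% with all subregions combined. An unadjusted p under 0.05 was reached by 2565 of 13588 genes in CA1, 2182 of 13848 in CA3 and 2712 of 13935 in DG. The median log2 difference over all genes tested lay between -0.01 and 0.00 in these comparisons.

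Nptxr values may hold reads that belong to Npcd, or the reverse, because quantification has to divide reads that fall on the shared exons. Npcd was far lower and erratic: its values were 134, 0 and 175 in untrained and 570, 305 and 777 in trained CA1, 181 and 177 untrained and 244, 190 and 34.0 trained in CA3, and 825 and 262 untrained and 0, 241 and 356 trained in DG. With Npcd added to Nptxr, the trained minus untrained difference was 0.58 in CA1, 0.56 in CA3 and 0.12 in the dentate gyrus.

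With all 16 libraries in one comparison and the subregion as a term, trained minus untrained was 0.24 for Nptx1 (standard error 0.0495), -0.27 for Nptx2 (0.0986) and 0.43 for Nptxr (0.0633) on the log2(value + 2) scale. This comparison treats libraries of one animal as separate. With a score of Y-linked transcripts minus Xist as a covariate, which rests on the libraries where that score departs from training, the values were 0.14 for Nptx1, -0.49 for Nptx2 and 0.53 for Nptxr, with standard errors of 0.118, 0.236 and 0.156. CA3 untrained replicate 1, whose Xist value goes against its animal, is one of them. Without that library, the CA3 differences were 0.25 for Nptx1, -0.40 for Nptx2 and 0.47 for Nptxr, and the combined ones 0.25, -0.20 and 0.39. Without DG trained replicate 3, the DG differences were 0.10, 0.06 and 0.25 in the same order, and the combined ones 0.27, -0.31 and 0.46. The CA1 differences of Nptx1, Nptx2 and Nptxr were 0.41, -0.29 and 0.51 without trained replicate 1 and 0.42, -0.43 and 0.54 without trained replicate 3, and those of CA3 were 0.26, -0.56 and 0.52 without trained replicate 3. Because the libraries are of whole tissue, fewer expressing cells and less RNA per cell cannot be told apart.

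**Figure D3:**
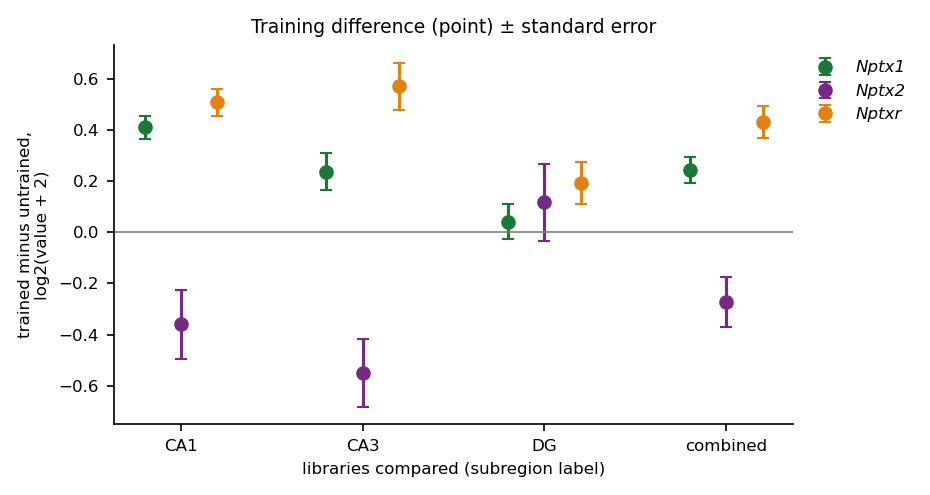
Trained minus untrained difference on the log2(value + 2) scale for the 3 neuronal pentraxins in CA1, CA3, DG and all subregions combined, with points at the limma estimate and whiskers of 1 standard error. Nptx1 and Nptxr lie above 0 and Nptx2 below 0 in CA1 and CA3, and the DG points lie between 0.04 and 0.19.

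Levels can be compared between the genes only per length. Divided by the longest annotated transcript (5217 bases for Nptx1, 2536 for Nptx2 and 5006 for Nptxr), the mean level over the 6 groups was 1458 per kb for Nptx1, 66.5 per kb for Nptx2 and 1527 per kb for Nptxr. Over single libraries the level per kb ran from 1144 to 1729 for Nptx1, from 1030 to 2061 for Nptxr and from 51.3 to 92.6 for Nptx2. Nptx1 and Nptxr were therefore present at nearly equal levels, and Nptx2 made up 1.45% to 3.92% of the summed level per kb. Nptxr has 3 annotated transcripts with a mean length of 3651 bases, and with that length its level was 2093 per kb.

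A ratio of 2 genes within one library does not depend on the scaling between libraries. The ratio of Nptx1 to Nptx2 levels per kb was 16.4 ± 3.08 (SD, n = 3) in untrained and 27.8 ± 2.87 (SD, n = 3) in trained CA1, with ranges of 12.9 to 18.6 and 24.9 to 30.6. In CA3 it was 15 and 18.3 in the untrained libraries and 26 to 33.7 in the trained ones. In DG it was 21.7 and 26.7 untrained and 19.3 to 25.3 trained. The ratio of Nptxr to Nptx2 was 11.6 to 17.5 untrained and 23.7 to 30.1 trained in CA1, 13.1 and 18.7 untrained and 32.7 to 35.7 trained in CA3, and 21.5 and 29.2 untrained and 22.2 to 28.9 trained in DG. Both ratios were without overlap between training groups in CA1 and CA3, and overlapped in DG. In CA1 and CA3 this follows from the separations of the single genes given above and is no further result. The ratio of Nptxr to Nptx1 ran from 0.872 to 1.09 over the 7 untrained and from 0.954 to 1.32 over the 9 trained libraries, with the highest values in trained CA3 (mean 1.19). In DG it was 0.988 and 1.09 untrained and 1.14 to 1.17 trained, without overlap, while the training groups overlapped in CA1 (0.89 to 0.985 and 0.954 to 1.03) and CA3 (0.872 and 1.02 against 1.01 to 1.32). Among single genes in DG, 17.5% had every trained library above every untrained one and 18.2% below, and no such share was taken over ratios.

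**Figure D4:**
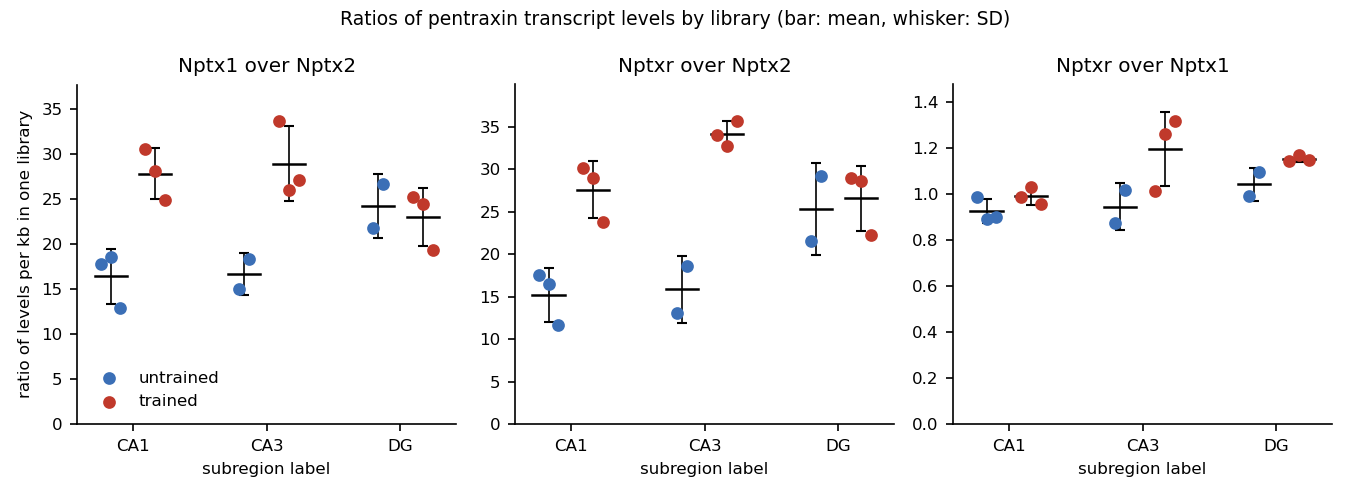
Ratios of transcript levels per kb within each of the 16 libraries, by subregion label, for Nptx1 over Nptx2, Nptxr over Nptx2 and Nptxr over Nptx1, with untrained libraries in blue, trained ones in red, bars at the mean and whiskers of 1 SD. The ratios to Nptx2 are higher in trained than in untrained CA1 and CA3 libraries (24.9 to 30.6 against 12.9 to 18.6 for Nptx1 in CA1), and Nptxr over Nptx1 stays between 0.872 and 1.32.

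For Nptx1 the group means rank as untrained CA1 (6295), untrained CA3 (7203), untrained DG (7520), trained DG (7769), trained CA1 (8360) and trained CA3 (8497). Untrained CA1, CA3 and DG did not overlap with one another, and each later group overlapped with the one before it. For Nptxr the order was untrained CA1 (5587), untrained CA3 (6524), untrained DG (7507), trained CA1 (7941), trained DG (8600) and trained CA3 (9692). Untrained CA1, CA3 and DG were again apart from one another, each later group overlapped with its neighbour, and trained CA3 was apart from trained CA1 and from untrained DG. For Nptx2 the order was trained CA3 (144.0), trained CA1 (147.0), untrained DG (152.5), trained DG (165.3), untrained CA1 (190.1) and untrained CA3 (212.3), and each group overlapped with the next.

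Among the untrained libraries, Nptx1 and Nptxr were thus lowest in CA1, intermediate in CA3 and highest in DG, and Nptx2 was higher in CA1 and CA3 than in DG without overlap. As background, every untrained CA1 library was below every untrained DG library in 16.3% of genes and above in 17.6%, every untrained CA3 library was below every DG one in 18.4% and above in 19.5%, and CA1 was below CA3 in 12.4%. Among trained libraries the only such separation was that of Nptxr, lower in CA1 than in CA3, a pattern of 6.18% of genes. Averaged over both training groups, CA1 minus DG was -0.07 for Nptx1, 0.07 for Nptx2 and -0.27 for Nptxr on the log2(value + 2) scale, CA3 minus DG was 0.04, 0.14 and -0.01 in the same order, and CA1 minus CA3 was -0.11, -0.07 and -0.25. The standard errors lay between 0.0446 and 0.107. With 1 animal left out the Nptx2 values ranged from -0.06 (without untrained animal 3) to 0.18 (without untrained animal 1) for CA1 minus DG, from 0.07 (without untrained animal 3) to 0.21 for CA3 minus DG and from -0.13 (without untrained animal 3) to 0.04 (without untrained animal 1) for CA1 minus CA3. The Nptxr value of CA3 minus DG ranged from -0.07 (without untrained animal 2) to 0.02 (without untrained animal 3), and the Nptx1 values from -0.10 to -0.04 (without trained animal 2) for CA1 minus DG and from 0.00 (without trained animal 1) to 0.08 (without trained animal 2) for CA3 minus DG. Without the single library CA3 untrained replicate 1, the Nptx2 values were 0.06 for CA3 minus DG and 0.01 for CA1 minus CA3, and the Nptxr value of CA3 minus DG was 0.04. Across all genes 4.05% were called between CA1 and DG, 0.00682% between CA3 and DG and 0.988% between CA1 and CA3 (limma, adjusted p under 0.05).

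The training difference of CA1 exceeded that of DG by 0.37 for Nptx1 (standard error 0.0891) and by 0.32 for Nptxr (0.124), and the same difference was -0.48 for Nptx2 (0.203), on the log2 scale in one fit of 6 groups in which 2.75% of genes were called for this contrast. Without untrained animal 3 the interaction was -0.20 for Nptx2 and 0.19 for Nptxr, and without untrained animal 1 it was -0.69 for Nptx2. CA3 against DG gave 0.19 for Nptx1, 0.38 for Nptxr and -0.67 for Nptx2. These are descriptions, as above.

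The AMPA receptor subunits that the pentraxins bind showed no called change with training. Gria1, Gria2, Gria3 and Gria4 were all tested, and 0 of 4 passed an adjusted p of 0.05 in CA1, CA3, DG or the combined comparison (limma, and 0 of 4 at an unadjusted p under 0.05). Gria1 was 13344 ± 423 (SD, n = 3) in untrained and 12768 ± 449 (SD, n = 3) in trained CA1, and Gria2 was 11025 ± 318 (SD, n = 3) and 11182 ± 259 (SD, n = 3). Between subregions only Gria3 passed, with a CA1 minus DG difference of 0.22 (standard error 0.0439 and limma adjusted p = 0.00669, kept in 4 of 6 fits with 1 animal left out, with adjusted p = 0.0717 at most, and lost without untrained animal 1 or trained animal 2).

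Of 12 AMPA receptor auxiliary subunits, which set the trafficking and gating of the receptor, 1 rose in CA1, 0 changed in CA3 (7 at an unadjusted p under 0.05, beside 2182 of all 13848 genes) and 2 fell in DG, where 5.23%, 0.852% and 3.39% of all genes were called in the same order. With 1 library left out the calls of this list numbered 0 to 3 in CA1 (3 without untrained replicate 3), 0 to 4 in CA3 (4 without trained replicate 1) and 0 to 4 in DG (4 without untrained replicate 3). Cacng2, which encodes stargazin, rose in CA1 from 256.3 to 288.3 in untrained to 349.7 to 372.1 in trained libraries (log2 difference 0.40, standard error 0.0919, limma adjusted p = 0.0134). That call was lost without trained replicate 1 or 2 (adjusted p = 0.0654 at most). In the combined comparison, with 10.3% of all genes called, 1 of 12 was called, again Cacng2 (0.27, limma adjusted p = 0.0142). The combined call was lost in 4 of 6 fits with 1 animal left out (adjusted p up to 0.146). It was also lost with the score of Y-linked transcripts and Xist as a covariate (0.33, limma adjusted p = 0.476). Cacng7 fell by 0.39 in DG (limma adjusted p = 0.0217) and Shisa7 fell by 0.32 (adjusted p = 0.037), and both calls were lost without untrained replicate 1 or any 1 of the trained replicates, with adjusted p up to 0.124 and 0.173. The Shisa7 call was also lost without robust estimation (limma adjusted p = 0.0614) and with all 16 libraries in one fit (0.0549). The list's median log2 difference was 0.07 in CA1, 0.05 in CA3 and -0.20 in DG, beside medians of all genes tested near 0.

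Of 12 genes of pentraxin release, cleavage and binding, 1 fell in CA1, 0 changed in CA3 (1 at an unadjusted p under 0.05) and 1 fell in DG, and 1 of 12 is close to the background of 5.23% of genes called in CA1 and 3.39% in DG. With 1 library left out there were 0 or 1 calls in CA1, 0 to 2 in CA3 (2 without trained replicate 1) and 0 to 3 in DG (3 without untrained replicate 3). Adam10, a protease of the cell surface, fell by 0.25 in CA1 (standard error 0.0657, limma adjusted p = 0.0313), from 954.3 to 1006 in untrained to 792.2 to 869.3 in trained libraries, and the call was lost without untrained replicate 1 or 2 or trained replicate 2 or 3 (adjusted p up to 0.163). Adam17 was not called, with 132.5 ± 31.0 (SD, n = 3) in untrained and 125.5 ± 14.1 (SD, n = 3) in trained CA1. Ptprd, a receptor phosphatase of synaptic adhesion, was lower in trained DG with a log2 difference of -0.28 and a limma adjusted p of 0.0353, a fall that was lost without any 1 of the trained replicates (adjusted p up to 0.147) and with all 16 libraries in one fit (0.471). Between subregions, Adam10 was higher in CA1 than in DG by 0.20 (limma adjusted p = 0.0228) and Adgrb3, a receptor for C1q-like proteins, was higher in CA1 than in CA3 by 0.19 (adjusted p = 0.037). Leaving out single animals ended the former call in 4 of 6 fits (untrained animals 1 and 3, trained animals 1 and 2, adjusted p up to 0.113) and the latter in 5 of 6 (all but trained animal 1, adjusted p up to 0.25). Adgrb3 also lost the call with upper-quartile rescaling (limma adjusted p = 0.0509) and without a filter on low values (0.0581). Their list also holds C1ql2, which is one of the granule cell markers.

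Perineuronal net genes and Pvalb had 0 of 8 calls in each of the 3 subregions (limma), with 3 in CA1, 2 in CA3 and 0 in DG at an unadjusted p under 0.05. Of this list only Pvalb is among the interneuron markers used here. Leaving out 1 library gave at most 1 call in a subregion, without untrained replicate 3 in CA1 and DG and without trained replicate 1 in CA3. Pvalb was 93.9 ± 5.90 (SD, n = 3) in untrained and 110.2 ± 22.6 (SD, n = 3) in trained CA1. The other pentraxin domain genes Crp, Apcs, Ptx3 and Ptx4, which encode pentraxins of immunity, were near 0, with no group mean above 9.5, and did not pass the filter on low values in any subregion. In the combined comparison only Ptx3 passed it, with a log2 difference of -0.86 (standard error 0.355, limma adjusted p = 0.124). Without untrained animal 3 that comparison had 1 call in this list.

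Activity-regulated genes, the class to which Nptx2 belongs, formed the longest list, with 22 genes, all tested. Since the list was chosen with earlier results known, its counts are no independent test against the share of all genes. In CA1, where 5.23% of all genes were called, 5 of 22 fell and 2 rose, in CA3 1 fell (0.852% of all genes called) and in DG 1 fell (3.39%, a share near that of the list), and the median log2 difference of the list was -0.28 in CA1, -0.03 in CA3 and -0.05 in DG. Leaving out 1 library at a time gave 5 to 7 calls in CA1, 0 to 2 in CA3 (2 without trained replicate 1, 0 without untrained replicate 1) and 0 to 3 in DG (3 without untrained replicate 3, 0 without trained replicate 2). In CA1 the immediate early genes Egr2, Homer1 and Fos fell by 1.61, 0.59 and 0.74 (limma adjusted p = 0.0017, 3.17e-05 and 0.00521), and these calls held with each library left out in turn. Homer1, which encodes a scaffold of postsynaptic glutamate receptors, was 1396 to 1542 in untrained and 917.6 to 1060 in trained libraries. Egr1 and Egr4 also fell, but Egr1 lost the call without untrained replicate 2 or trained replicate 1 or 3 (adjusted p up to 0.108) and Egr4 without untrained replicate 1 or 3 (0.0672). Ptgs2, the inducible cyclooxygenase of neurons, rose by 0.60 in CA1 (standard error 0.108, limma adjusted p = 0.00206), from 214.6 to 274.6 in untrained to 335.3 to 404.3 in trained libraries. Nrn1, which encodes neuritin, rose by 0.30 (limma adjusted p = 0.00478) and was lost without untrained replicate 1 (adjusted p = 0.0544).

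In CA3 the called gene of that list was Inhba, the activin subunit, which fell by 0.79 (standard error 0.138, limma adjusted p = 0.0325), from 242.6 and 252.8 in the untrained libraries to 125.0 to 169.4 in the trained ones. It was lost without untrained replicate 1 or 2 or trained replicate 2 (adjusted p up to 0.262), and without robust estimation (0.0508). In DG it was Scg2, a secretogranin of dense-core vesicles, which fell by 0.35 (limma adjusted p = 0.0165) and was lost without trained replicate 2 or 3 (adjusted p up to 0.108). Arc, the gene whose promoter drives the Cre of this line, was 2081 to 4067 in untrained and 1510 to 1894 in trained CA1 and was not called. In the combined comparison, with 10.3% of all genes called, 1 gene of the list rose (Ptgs2, 0.38, limma adjusted p = 0.0135, and 0.208 without untrained animal 1) and 4 fell, of which Inhba fell by 0.46 (adjusted p = 0.00273), and with the score of Y-linked transcripts and Xist added none of these 5 kept an adjusted p under 0.05. With 1 animal left out the combined calls of this list numbered 1 (without untrained animal 1) to 7 (without untrained animal 3). With the sex-linked score the log2 differences were farther from 0 for Inhba (-0.78, limma adjusted p = 0.138), Ptgs2 (0.51, 0.404) and Scg2 (-0.33, 0.263) and nearer to 0 for Egr1 (-0.24, 0.84) and Egr2 (-0.38, 0.879). Between subregions Egr1 was higher in CA1 than in CA3 by 0.58 (limma adjusted p = 0.00473, and 0.0606 without untrained animal 2), with 1134 to 1716 in CA1 and 683.7 and 687.1 in CA3 among untrained libraries and overlapping ranges of 677.8 to 759.2 and 582.0 to 686.8 among trained ones, and Nrn1 was lower in CA1 than in DG by 0.28 (limma adjusted p = 0.00947, lost without untrained animal 3, where the difference was -0.17 with an adjusted p of 0.112, and without trained animal 2).

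**Figure D5:**
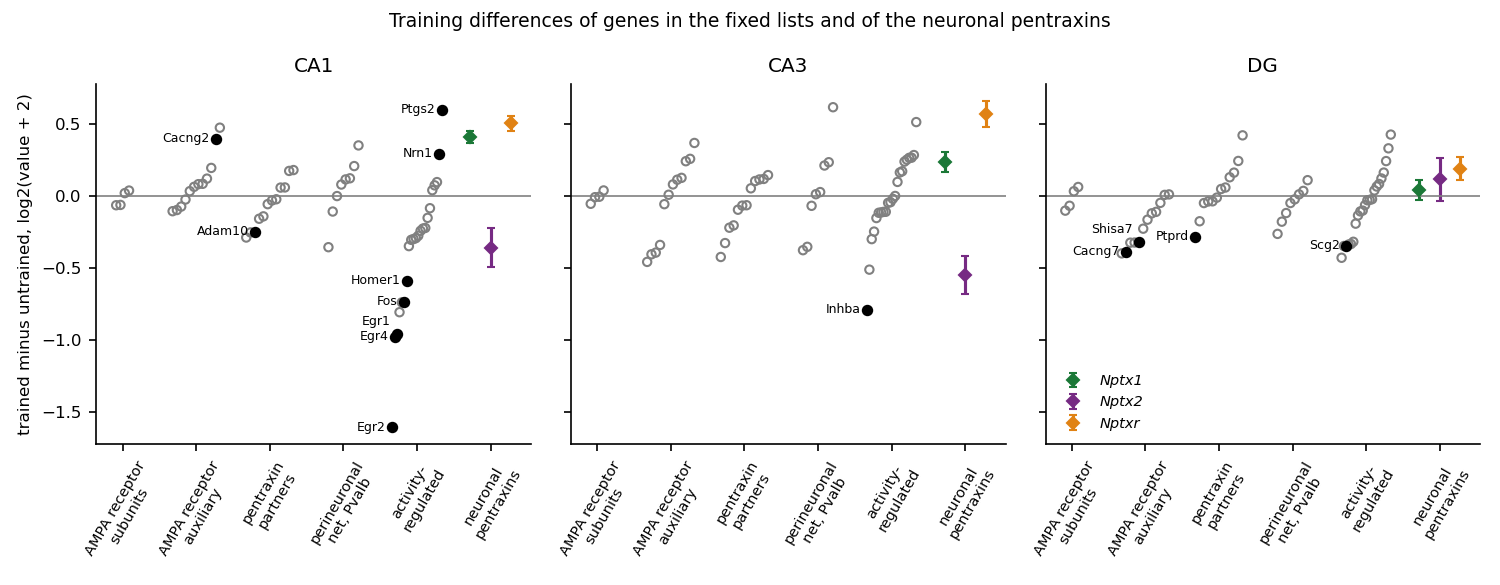
Trained minus untrained difference on the log2(value + 2) scale in CA1, CA3 and DG for the tested genes of 5 fixed lists and, as diamonds with 1 standard error, the 3 neuronal pentraxins. Filled points with a name have an adjusted p under 0.05 (limma), open points do not, and no test is shown for the pentraxins. Among activity-regulated genes in CA1, 5 fell and 2 rose.

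The genes with the pattern most like that of each member were sought over the 6 group means, each profile centred on its own mean, among 8882 other genes with a mean value of at least 100. Closest to Nptx1 were Rap1gap2, an inhibitor of Rap signalling (root-mean-square difference 0.024 in log2 units), and D8Ertd738e (0.034), where the profile of Nptx1 itself ranges over 0.43. Closest to Nptxr, with a range of 0.79, were Slc25a22, a mitochondrial glutamate carrier (0.036), Lingo1, a neuronal membrane protein that limits axon growth (0.041), and Syt3, a synaptotagmin (0.046). Closest to Nptx2, with a range of 0.55, were Sv2c, a synaptic vesicle protein (0.053), the copper transporter gene Atp7a (0.071) and the chromatin gene Asxl3 (0.071). The distance between Nptx1 and Nptxr was 0.137, by which Nptxr ranked 2351 among the genes nearest to Nptx1, and Nptx1 ranked 260 among those nearest to Nptxr. Those of Nptx2 to Nptx1 and Nptxr were 0.324 and 0.433, at ranks 8123 and 8719 from Nptx2. All of these are descriptions of 6 values per gene from the same libraries.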

How the data were processed

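Bulk RNA-seq of microdissected DG, CA3 and CA1 was analysed; its other assays were not analysed here. Per the study's methods the authors depleted rRNA (the labels name polyA RNA), sequenced paired ends, aligned with STAR and quantified with Salmon; the submitters' processing notes name GRCm38, Trim Galore, FastQC, bcl2fastq 2.20 and DESeq2. The deposited signal is an estimated count normalized between libraries: values are not whole, and median-of-ratios factors computed from them were 1.000 in all 16 libraries, so the planned median-of-ratios rescaling changed nothing. Whole reads could not be recovered, depth is unknown and no counting intervals are given.

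Tests used limma 3.58.1 in R 4.3.3 on log2(value + 2), with trend, robust estimation and Benjamini-Hochberg adjustment over all genes tested. The filter kept genes that reached 10 in 3 libraries of CA1, or in 2 for the other fits. Fold differences on this scale understate those of low genes. Training was fitted within each subregion and combined with subregion as a term; subregion and interaction contrasts came from 1 fit of 6 groups. Libraries are separate animals within a group, and the script was tested on simulated data.

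The 3 members and the lists were chosen with earlier results of these data known. Named genes were the members, at most 4 genes of smallest p per list and comparison among those past an adjusted p of 0.05, sex-linked transcripts, and for each member the 3 genes nearest in pattern, of which 1 is not reported here; values of Fos, Egr1 and Egr4 in CA1 and of Gria1, Gria2, Adam17, Pvalb, Arc and Npcd, and the markers named, were given after they were seen. Markers of CA1, CA2 and CA3 pyramidal cells, granule cells, interneurons, astrocytes, oligodendrocytes, microglia, choroid plexus and thalamus were fixed as a check. Subregion contrasts share animals by the labels; deviations from group means correlated between libraries of one animal from -0.280 to 0.212 (median 0.068, 14 pairs). Training groups share only replicate numbers. Symbols of 24464 of 24972 genes (98%) were found in GENCODE M21 (GRCm38), and 0 of 3 members were in the RefSeq promoter table. Alternatives were rescaling, pseudocount 0.5, other filters, ordinary instead of robust variance estimation, one joint fit for every subregion, replicate or animal blocks, a sex-linked covariate and leaving out libraries. Upper-quartile rescaling, the sum of Nptxr and Npcd, and leaving out DG trained replicate 3 were added after the data were seen.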

Additional observations from a re-analysis of the deposited data

Results flagged for a closer look

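In the fixed lists, 3 genes had a training difference that differed between CA1 and DG at an adjusted p under 0.05 (limma, interaction in the fit of 6 groups), where 2.75% of all genes tested did. They were 1 of 22 activity-regulated genes, 1 of 12 AMPA receptor auxiliary subunits and 1 of 12 genes of pentraxin release, cleavage and binding. The other lists gave 0 of 4 AMPA receptor subunits, 0 of 8 perineuronal net genes with Pvalb and 0 of 1 other pentraxin domain gene tested. The training difference of Homer1 in CA1 minus that in DG was -0.66 on the log2 scale (standard error 0.107, adjusted p = 0.00293). Homer1 was 1396 to 1542 in untrained and 917.6 to 1060 in trained CA1, against 1032 and 1034 in untrained and 1069 to 1105 in trained DG, and the call held with each animal left out in turn and with the animal as a block (adjusted p = 0.00391). For Cacng7, an AMPA receptor auxiliary subunit, the value was 0.47 (standard error 0.112, adjusted p = 0.0248), with 802.6 and 882.0 in untrained and 606.3 to 676.4 in trained DG, and 694.5 to 741.6 in untrained and 725.0 to 787.4 in trained CA1. For C1qc, a chain of complement C1q, it was -0.71 (standard error 0.183, adjusted p = 0.0355), with 123.1 and 144.8 in untrained and 176.9 to 181.4 in trained DG, and 153.7 to 163.4 in untrained and 111.2 to 142.5 in trained CA1. The training difference of C1qc was not called within DG (0.42, adjusted p = 0.103, limma) or CA1 (-0.29, 0.25), and the same contrast was -0.07 for C1qa and -0.09 for C1qb, chains of the same complex. With the animal as a replicate block the adjusted p was 0.0516 for Cacng7 and 0.066 for C1qc. The Cacng7 call was also lost without untrained animal 1 or 2 or trained animal 1 or 2 (adjusted p up to 0.132), and the C1qc call without any animal but untrained animal 3 (up to 0.208).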

How the results depend on the processing

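Of 436 alternative values of the members' differences, 427 moved by less than 1 SD of the libraries within groups and 9 moved further. Part of the 427 could not move. Filters and robust estimation do not enter the estimated difference of a gene, and median-of-ratios rescaling changed no value. One fit of all 16 libraries keeps the group means of each subregion. The 427 is therefore no measure of stability. The pseudocount of 0.5 could move the differences and moved none of them that far. The score of Y-linked transcripts and Xist as a covariate gave 0.14 for Nptx1 and -0.49 for Nptx2 in the combined comparison, and 0 genes past an adjusted p of 0.05 in place of 1517 (limma, 1702 at an unadjusted p under 0.05). Adding Npcd to Nptxr gave 0.46 for its CA1 minus DG training contrast, and the mean transcript length gave 2093 per kb for Nptxr. With 1 animal left out the CA1 minus DG training contrast ranged from -0.69 to -0.20 for Nptx2 and from 0.19 to 0.43 for Nptxr, that of CA3 minus DG from 0.13 to 0.29 for Nptx1, and that of CA1 minus CA3 from -0.03 to 0.32 for Nptx2 and from -0.15 to 0.09 for Nptxr.

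Counts of genes past an adjusted p of 0.05 moved more. Without a filter on low values they were 1877 for training in CA1, 391 for CA1 against DG, 2 for CA3 against DG and 2039 for the CA1 minus DG training contrast, which was 200 when each library had to reach 10. Without robust estimation they were 56 for training in CA3, 308 in DG, 11 for the CA3 minus DG training contrast and 2 for that of CA1 minus CA3. All 16 libraries in one fit gave 413 in CA3. Upper-quartile rescaling gave 12 for the CA3 minus DG and 7 for the CA1 minus CA3 training contrast. Without CA3 untrained replicate 1 they were 17 in CA3, 1000 combined, 4 for CA3 against DG, and 9 and 1 for the CA3 minus DG and CA1 minus CA3 training contrasts, and without DG trained replicate 3 the DG count was 101. With each library or animal left out in turn the training counts ranged from 329 to 865 in CA1, 7 to 680 in CA3, 28 to 1583 in DG and 456 to 1873 combined; those between subregions from 113 to 432 for CA1 against DG, 0 to 19 for CA3 against DG and 52 to 180 for CA1 against CA3; and the training contrasts from 24 to 355 for CA1 minus DG, 0 to 72 for CA3 minus DG and 0 to 69 for CA1 minus CA3. The counts of 0 (limma) had between 571 and 1366 genes at an unadjusted p under 0.05. The causes were not tested.

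Training groups share only replicate numbers, and deviations of same-numbered libraries correlated from -0.204 to 0.099 over 7 pairs. With the number as a replicate block the counts were 1160 in CA3 and 559, 500 and 1394 in CA1, DG and combined, the members' differences were 0.26, -0.56 and 0.52 in CA3 and -0.04, 0.09 and 0.10 in DG for Nptx1, Nptx2 and Nptxr (in CA1, where the numbers are balanced, a block cannot move them), and the calls of Adam10 in CA1 (adjusted p = 0.0515, limma) and Ptprd in DG (0.0912) were lost, while no other named training call changed. With the animal as a replicate block, CA3 against DG gave 2 genes and the CA3 minus DG training contrast 5, and no call between subregions was lost among the genes named. Depth is unknown, and groups of 2 or 3 libraries limit every value.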
